A study of Mus musculus with 6 samples.

Results

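Cytochrome P450 genes other than the *Cyp26* genes were examined in mouse corneal epithelium. Members were chosen by symbol and by measured count: a gene was taken when its symbol was Cyp followed by a number, was not a *Cyp26* gene, and its count reached 10 in at least 1 of the 6 samples. By this rule 33 of the 65 such genes in the table were members, among 17784 genes listed in all. The other 32 stayed below 10 counts in every sample. Just inside the minimum lay *Cyp46a1*, *Cyp2e1* and *Cyp27b1*, with highest counts of 11, 11.5 and 11.9. Just outside it lay *Cyp2u1*, *Cyp2j13* and *Cyp2d26*, with highest counts of 9.94, 9.14 and 8.77. *Cyp1a1* was not analysed here.

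The epithelial sheet was lifted off the cornea with EDTA and its RNA was sequenced in bulk. The 3 control samples came from mice labelled as controls, shown by the study as Ptch1 f/f, and the 3 Ptch1Prrx1 samples from Prrx1-CreERT;Ptch1 f/f mice. The labels give an age of 10 weeks, 3 doses of tamoxifen and a period of 2 months for all 6 samples, without saying how the age and the period relate, and the study's own timelines differ from this. The floxed line was kept on the C57BL/6 background. Ptch1 is the receptor that holds Hedgehog signaling off, and its loss switches the pathway on. Prrx1-CreERT is a tamoxifen-inducible Cre that recombines in keratocytes, the cells of the corneal stroma, and in corneal endothelial cells, per the study, which aimed the deletion at keratocytes and not at the epithelium sequenced here. The comparison asks how the epithelium differed in mice with this deletion.

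The samples held between 20296741 and 20625813 counts each, so that 3 counts corresponded to 0.145 to 0.148 CPM, the count scaled to library size. Normalized counts below are counts scaled to a common library size, and are used to compare one gene between samples. Levels of different genes are compared in TPM, which scales for transcript length as well as for library size. *Ptch1* itself was at 517, 659 and 682 normalized counts in the control samples and at 390, 445 and 471 in the Ptch1Prrx1 samples, a log2 fold change of -0.51 (SE 0.13, adjusted p = 0.0401, edgeR's quasi-likelihood test). All 3 Ptch1Prrx1 samples were lower, by less than 2-fold. Whether the Cre recombined in any epithelial cell was not tested, so this level is no check of the genotype.

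The samples carried the markers of corneal epithelium. Their summed level was 98438, 96881 and 88887 CPM in the control samples and 87991, 101360 and 87417 CPM in the Ptch1Prrx1 samples. *Krt12*, the keratin of the differentiated corneal epithelium, was the most abundant of 9 markers, and its groups overlapped (log2 fold change -0.10, adjusted p = 0.645, edgeR). *Krt14*, a basal cell keratin, was the only one of the 9 to pass, with a log2 fold change of 2.81 (SE 0.34, adjusted p = 0.00769, edgeR). Of the 12 stroma markers 11 were listed and 5 tested, none passed, and their summed level was 30.4, 25.1 and 104 CPM in the control samples and 25.3, 32.1 and 20.3 in the Ptch1Prrx1 samples. Control replicate 3 thus held the highest stroma marker level, while *Kera*, a keratocyte-defining gene, had at most 1 count in any sample. By count *Pdgfra* led that list, and by TPM *Col1a2*, a collagen gene, did (mean of 5.55 against 5.36 TPM over the 6 samples). *Col1a2* was at 1.69, 0.910 and 26.0 TPM in the control samples and at 2.00, 2.62 and 0.0800 TPM in the Ptch1Prrx1 samples, so that control replicate 3 alone was high. *Prrx1* was at 22.9, 14.7 and 209 normalized counts in the control samples and at 33.1, 35.9 and 1.99 in the Ptch1Prrx1 samples.

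Conjunctiva markers, led by *Krt13*, summed to 1084, 1366 and 1685 CPM in the control samples and to 3876, 1665 and 2170 in the Ptch1Prrx1 samples. Of the 8 genes of that list 7 were listed, 5 were tested and none passed at 2-fold, *Krt8* fell at the adjusted p alone (log2 fold change -0.91, adjusted p = 0.0139, edgeR), and the goblet cell gene *Tff1* had at most 1 count. Immune cell markers, of which 4 of 10 were tested and none passed, were led by *Itgam* and summed to 183.7, 213 and 248 against 347, 250.2 and 272 CPM, whereas *Ptprc*, the pan-leukocyte marker, had at most 9 counts. Ptch1Prrx1 replicate 1 was the highest sample on both lists. Vascular endothelium markers stayed between 0.340 and 1.19 CPM, sebaceous and meibomian markers between 2.96 and 4.57, melanocyte markers between 8.02 and 10.2, corneal endothelium markers between 33.1 and 41.1, and Schwann cell markers between 161 and 199, and no gene of these lists passed. A list of 22 immediate early genes, which respond quickly to stress and handling of tissue, was also summed. Its level was 2025, 1990 and 1633 CPM in the control samples and 4725, 4536 and 3749 in the Ptch1Prrx1 samples. Of the 21 tested, 12 rose by at least 2-fold at an adjusted p of at most 0.05 (edgeR), where 2.34% of all tested genes did. Whether any of these differences had a part in the P450 levels below was not tested.

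The first principal component of all tested genes took 58.1% of the variance. On it Ptch1Prrx1 replicate 1 stood at 51.7, away from its group mates at 18.3 and 19.1, and the control samples lay between -33.7 and -26.5. Among the 30 members tested, Ptch1Prrx1 replicate 1 was the lowest of the 6 samples for 15 genes and the highest for 3. Where the sign or the call of a member turned without this sample, both values are given.

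Cytochromes P450 are heme enzymes that insert an oxygen atom into lipids, steroids and foreign compounds. Most sit in the endoplasmic reticulum and receive electrons from P450 oxidoreductase (*Por*), in part through cytochrome b5. Families 1 to 3 are best known for oxidizing drugs and pollutants, and several of their members also make epoxides of arachidonic acid. Family 4 hydroxylates fatty acids at or near the end of the chain, and the higher-numbered families mostly act on sterols, bile acids, steroid hormones and vitamin D. The cornea is exposed to light and to chemicals from outside, and P450 products of arachidonic acid have long been studied in its epithelium.

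The members fell into 12 families and 25 subfamilies. The *Cyp4* family had 12 members and the *Cyp2* family had 10. *Cyp27* had 2, and each of the other families had 1. Only 3 subfamilies held more than 1 member, namely *Cyp4f* with 6, *Cyp4a* with 3 and *Cyp2j* with 2.

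Levels differed widely between members. *Cyp4a12b*, a fatty acid omega-hydroxylase, was the most abundant member, at 1028 ± 146 TPM in the control samples and 762 ± 100.1 TPM in the Ptch1Prrx1 samples (mean ± SD, n = 3 each). *Cyp51*, the lanosterol demethylase of cholesterol synthesis, had a mean of 125 TPM over the 6 samples and *Cyp4a12a* had 110, but *Cyp4a12a* was above *Cyp51* in the control samples (173 ± 43.0 against 104 ± 20.7 TPM) and below it in the Ptch1Prrx1 samples (47.6 ± 24.1 against 146 ± 34.6 TPM). In the control samples *Cyp3a13* came next with a mean of 99.4 TPM, followed by *Cyp2s1* at 73.1, *Cyp2a5* at 71.6, *Cyp2b19* at 47.3, *Cyp39a1* at 47.0, *Cyp4f13* at 41.5 and *Cyp2j6* at 28.6. In the Ptch1Prrx1 samples the order was different, with *Cyp2s1* at 50.6 TPM, *Cyp4a12a* at 47.6, *Cyp3a13* at 46.9, *Cyp2b19* at 43.4, *Cyp39a1* at 30.2, *Cyp2a5* at 27.8, *Cyp4f13* at 27.01 and *Cyp2j6* at 26.3. The SD over 3 samples reached 24.1 TPM for *Cyp4a12a*, 21.3 TPM for *Cyp2b19* and 11.1 TPM for *Cyp3a13* in that group, and each difference between neighbours in this order was within the larger of their SDs. Over all 6 samples the mean was at least 10 TPM for 14 members, at least 1 TPM for 27 and below 1 TPM for 6.

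**Figure D1:**
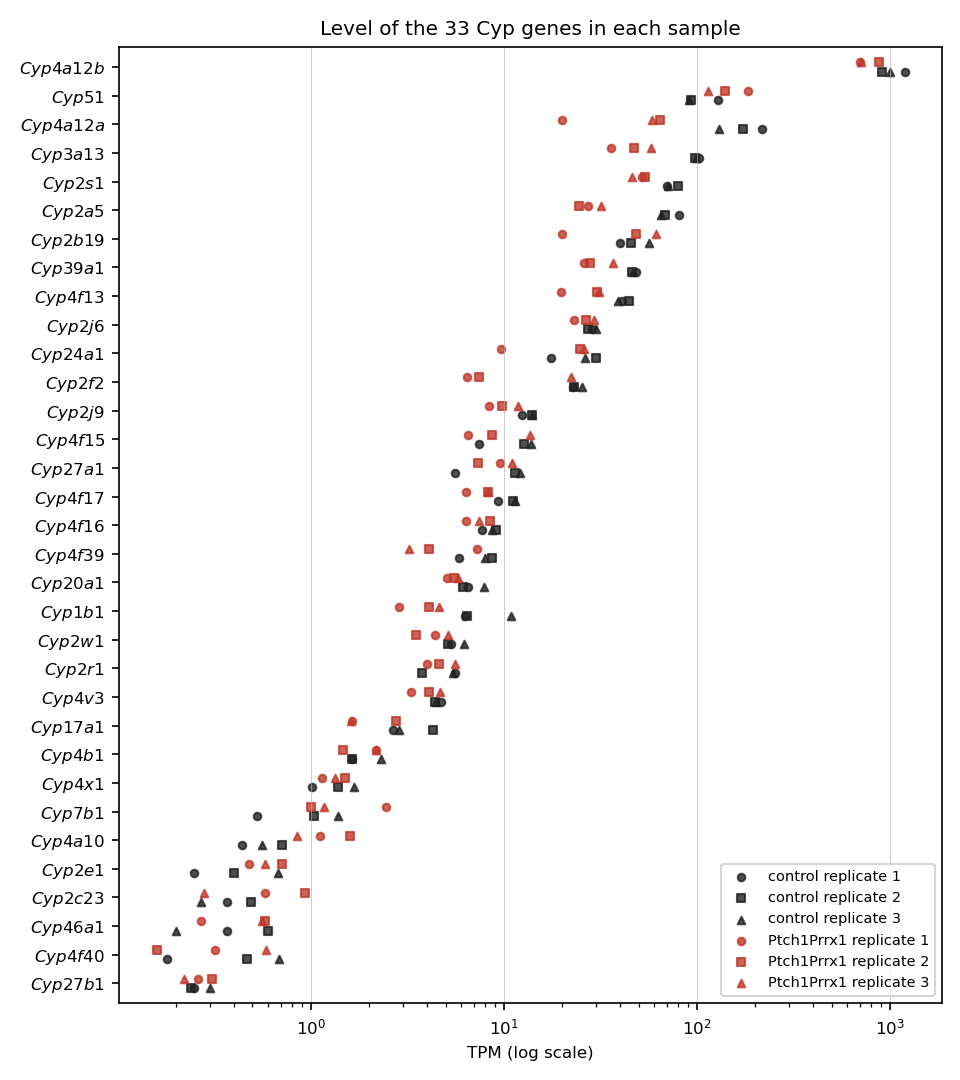
TPM on a log scale (x axis) of the 33 *Cyp* genes (y axis, ordered by mean level), with 1 point per sample, dark for control and red for Ptch1Prrx1, and a marker shape for each replicate. *Cyp4a12b* stands alone at the top with a mean of 895 TPM, and 6 genes lie below a mean of 1 TPM.

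All members together summed to 2068, 1735 and 1788 TPM in the control samples and to 1198, 1453 and 1314 TPM in the Ptch1Prrx1 samples. Every Ptch1Prrx1 sum lay below every control sum, with means of 1864 ± 179 and 1322 ± 127 TPM (SD, n = 3 each). The *Cyp4a12* pair made up 64.3% ± 3.20 of this sum in the control samples and 61.1% ± 3.36 in the Ptch1Prrx1 samples, so the total mostly followed these 2 genes. As the RNA came from whole epithelial sheets, fewer cells of a type and less RNA per cell cannot be told apart here or in the results that follow.

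Of the 33 members, 30 passed edgeR's default filter on low counts and were tested, and *Cyp2e1*, *Cyp2c23* and *Cyp4f40* did not. A gene was called when its Benjamini-Hochberg adjusted p in edgeR's quasi-likelihood test was at most 0.05 and its change was at least 2-fold. *Cyp4a12a*, *Cyp2a5* and *Cyp1b1* fell, and no member rose. Over all 12999 tested genes 3.23% were called, 0.892% down and 2.34% up. At the same adjusted p with no minimum fold, *Cyp3a13*, *Cyp39a1* and *Cyp2s1* also fell, which made 6 members down and 0 up, where 6.41% of all tested genes passed downward and 7.61% upward. The log2 fold change was below 0 for 22 of the 30 members and for 51.5% of all tested genes. Its median was -0.28 over the members and -0.01 over all tested genes, and the members ranged from -1.85 to 1.07. Without Ptch1Prrx1 replicate 1 the count of called members was again 3, with *Cyp4f39* in and *Cyp1b1* out, while 273 of all genes were called in place of 420, and without control replicate 2 *Cyp2a5* was the 1 member called, among 59 of all genes.

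**Figure D2:**
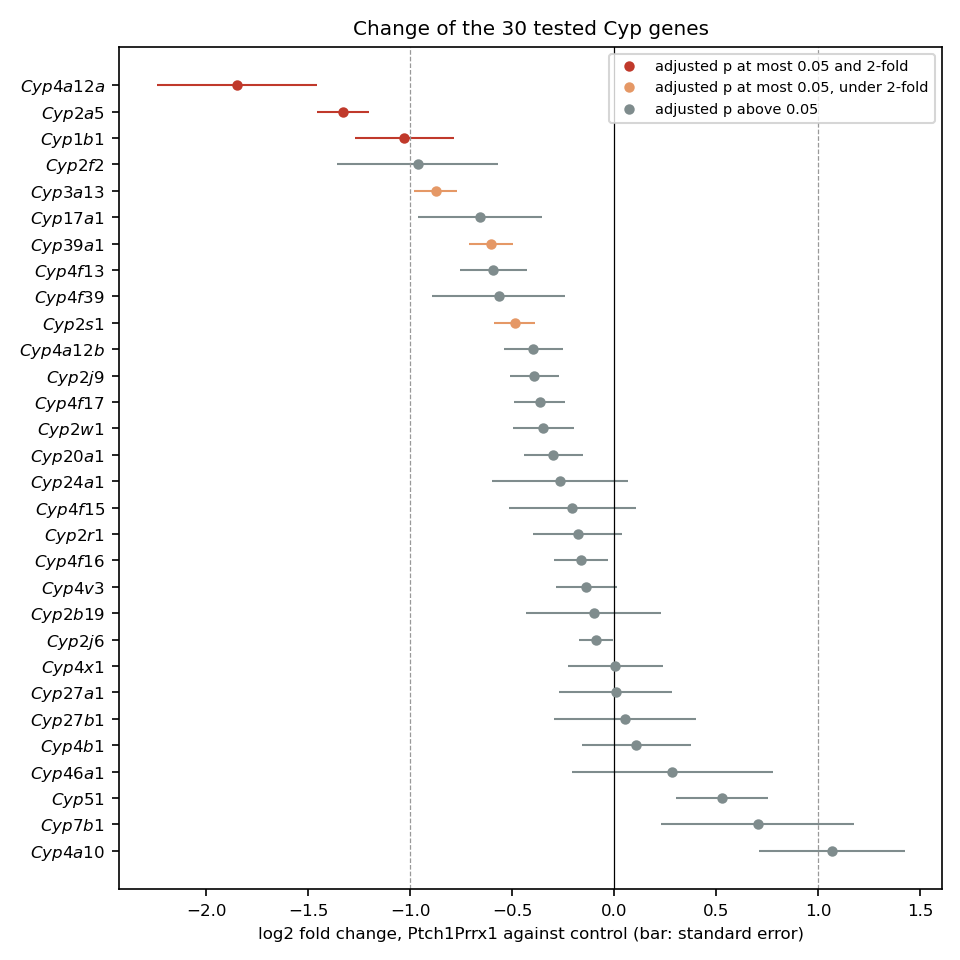
Log2 fold change of Ptch1Prrx1 against control (x axis, bars are standard errors, dashed lines mark 2-fold) for the 30 tested *Cyp* genes (y axis). The 3 genes in red fell by at least 2-fold, the 3 in orange passed the adjusted p below 2-fold, and no gene to the right of 0 passed.

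The 3 control values lay wholly above the 3 Ptch1Prrx1 values for 12 of the 30 tested members, wholly below them for 1, and overlapped for 17. Among all tested genes 20.3% had every Ptch1Prrx1 sample below every control sample and 19.7% had every one above. A two-sided exact permutation test of 3 against 3 samples cannot give a p below 0.1, so the calls rest on the spread that edgeR estimated across all genes. With the counts of each subfamily summed, 23 of the 25 subfamilies were tested, and 2 of them, *Cyp2a* and *Cyp1b*, each with 1 member, were called down. With 1 sample left out the number was between 1 and 3, and it was 1 without control replicate 2, control replicate 3, Ptch1Prrx1 replicate 1 or Ptch1Prrx1 replicate 2.

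The *Cyp4a* subfamily held the most abundant P450 transcripts. *Cyp4a12a* and *Cyp4a12b* encode omega-hydroxylases of fatty acids, of which *Cyp4a12a* is known as the main maker of 20-hydroxyeicosatetraenoic acid in male mouse kidney. Both genes lie on chromosome 4, with their longest coding transcripts at chr4:115299046-115332815 and chr4:115411624-115439034 on the plus strand of GRCm38. Their coding sequences are 1527 bases each, differ at 23 positions (98.5% identity) and are identical over runs of up to 342 bases. The stretch of 120 bases in which they differ most, coding positions 644 to 763 of GENCODE M21, is shown because it is where reads can best be assigned to one gene or the other, with the 8 differing bases in capitals.
Cyp4a12a: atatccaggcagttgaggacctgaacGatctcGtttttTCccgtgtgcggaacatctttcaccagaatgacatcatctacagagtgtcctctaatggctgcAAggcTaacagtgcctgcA
Cyp4a12b: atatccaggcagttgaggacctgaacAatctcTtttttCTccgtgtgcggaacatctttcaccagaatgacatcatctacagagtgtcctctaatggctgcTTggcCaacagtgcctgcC

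Over the whole transcripts, 35.8% of all 100-base windows of *Cyp4a12a* occur unchanged in *Cyp4a12b*, and 48.9% of all 50-base windows do. The read length is not stated in the sources used here. RSEM divides a read that fits both genes between them, and the counts of both genes were not whole numbers in any of the 6 samples, so the split is an estimate of the software.

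*Cyp4a12a* was at 5011, 3836 and 2859 normalized counts in the control samples and at 482, 1477 and 1287 in the Ptch1Prrx1 samples. The groups did not overlap, and Ptch1Prrx1 replicate 1 was the lowest. The gene was 3.61-fold lower (log2 fold change -1.85, SE 0.39, adjusted p = 0.0262, edgeR). The call was lost without control replicate 1 (log2 fold change -1.63, adjusted p = 0.0736, edgeR) or control replicate 2 (-1.86, 0.0969), and without Ptch1Prrx1 replicate 1 it held (-1.49, 0.0119).

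*Cyp4a12b* was at 27160, 19810 and 21504 normalized counts in the control samples and at 16731, 19954 and 15365 in the Ptch1Prrx1 samples. The groups overlapped, since Ptch1Prrx1 replicate 2 exceeded control replicate 2, and the log2 fold change of -0.40 (SE 0.14) did not pass (adjusted p = 0.101, edgeR). Under an alternative setting with all samples kept, *Cyp4a12b* passed the adjusted p, below 2-fold. Of all expected counts given to the pair, *Cyp4a12a* received 15.6%, 16.2% and 11.7% in the control samples and 2.80%, 6.89% and 7.73% in the Ptch1Prrx1 samples. This share was lower in every Ptch1Prrx1 sample than in every control sample (14.5% ± 2.43 against 5.81% ± 2.64, SD, n = 3 each).

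**Figure D3:**
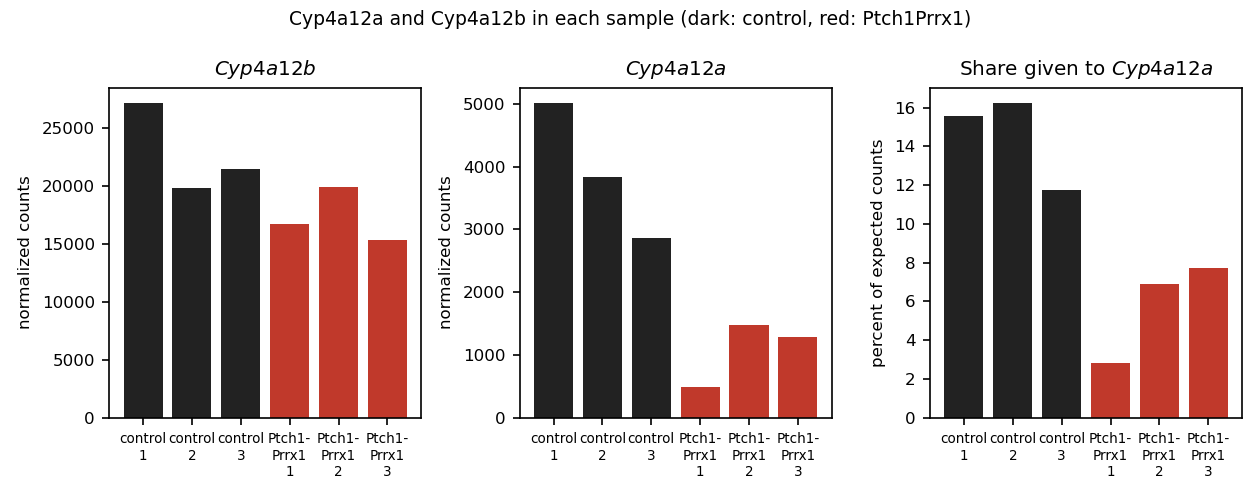
Normalized counts of *Cyp4a12b* (left) and *Cyp4a12a* (middle) and the percent of the pair's expected counts given to *Cyp4a12a* (right), with 1 bar per sample, dark for control and red for Ptch1Prrx1. *Cyp4a12a* and its share separate the groups, with Ptch1Prrx1 replicate 1 lowest at 2.80%, while *Cyp4a12b* overlaps.

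*Cyp4a12a* is known to be induced by androgens in mouse kidney, and the labels do not give the sex of each mouse. The Y-linked genes *Ddx3y* and *Eif2s3y* were present in all 6 samples. *Ddx3y* was at 641, 579 and 609.6 normalized counts in the control samples and at 1201, 747 and 693 in the Ptch1Prrx1 samples, and *Eif2s3y* was at 799, 781 and 709 against 1510, 914 and 890.0. Both were highest in Ptch1Prrx1 replicate 1, in which *Cyp4a12a* was lowest. *Kdm5d*, also Y-linked, was at 258, 368 and 257 against 455, 348 and 327 and overlapped between the groups. *Uty*, the remaining Y-linked gene examined, was at 447, 504 and 572 against 537, 502 and 481, with its highest value in control replicate 3 (log2 fold change -0.00, adjusted p = 0.985, edgeR). The part of sex in the P450 results was not tested.

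*Cyp4a10*, which encodes a fatty acid omega-hydroxylase induced through PPARα in liver, was the only member whose Ptch1Prrx1 samples all lay above the controls. It had few reads, with 8.94, 13.8 and 10.7 normalized counts in the control samples and 22.7, 31.8 and 15.9 in the Ptch1Prrx1 samples, and its log2 fold change of 1.07 (SE 0.36) did not pass (adjusted p = 0.0830, edgeR). Of its 100-base windows 12.7% occur in another gene, most often *Cyp4a32*. The sum of the 3 *Cyp4a* members, within which reads shared among them stay, was 32180, 23660 and 24373 normalized counts in the control samples and 17236, 21462 and 16668 in the Ptch1Prrx1 samples. These values did not overlap, and the log2 fold change of -0.53 (SE 0.15) lay just outside the threshold (adjusted p = 0.0523, edgeR). The sum passed the adjusted p in 1 of the 6 edgeR fits that left out a sample, below 2-fold. It also passed, below 2-fold, under an alternative setting with all samples kept.

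The *Cyp4f* subfamily hydroxylates leukotrienes and long fatty acids. Its 6 members summed to 1299, 1547 and 1439 normalized counts in the control samples and to 925, 1116 and 1134 in the Ptch1Prrx1 samples. The sum was lower in every Ptch1Prrx1 sample and fell by 0.43 on the log2 scale (SE 0.10, adjusted p = 0.0360, edgeR), which is below 2-fold, and of the 6 fits that left out a sample it passed in 1, that without Ptch1Prrx1 replicate 3. No single *Cyp4f* member passed in the main edgeR test.

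*Cyp4f13*, the most abundant of them, was at 631, 662 and 564 normalized counts in the control samples and at 304, 468 and 458 in the Ptch1Prrx1 samples (log2 fold change -0.59, SE 0.16, adjusted p = 0.0519, edgeR). *Cyp4f17* was at 219.6, 270.4 and 264 against 177, 213 and 195 (-0.37, adjusted p = 0.0893, edgeR). Neither gene overlapped between the groups. Without Ptch1Prrx1 replicate 1 *Cyp4f13* passed the adjusted p, below 2-fold (-0.42, adjusted p = 0.0402, edgeR). *Cyp4f15* and *Cyp4f16* overlapped, at -0.21 and -0.16, the first turning to 0.03 without Ptch1Prrx1 replicate 1, and *Cyp4f40* did not pass the filter. *Cyp4f39*, the counterpart of human CYP4F22, which makes the omega-hydroxylated ultra-long fatty acids of skin barrier ceramides, was at 142, 204 and 189 normalized counts in the control samples and at 186, 102 and 73.7 in the Ptch1Prrx1 samples. Its groups overlapped through Ptch1Prrx1 replicate 1 (log2 fold change -0.57, adjusted p = 0.260, edgeR), and without that sample the gene was called (-1.02, adjusted p = 0.0357). The *Cyp4f* counts other than those of *Cyp4f39* were not whole in any sample, so reads were divided there too, and 9.80% of the 100-base windows of *Cyp4f16* recur in another gene.

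None of the other *Cyp4* members passed. *Cyp4v3*, the counterpart of human CYP4V2, whose mutations cause Bietti crystalline dystrophy of cornea and retina, was at 131, 118 and 116 normalized counts in the control samples and at 96.1, 113 and 123 in the Ptch1Prrx1 samples (log2 fold change -0.14, adjusted p = 0.556, edgeR). *Cyp4b1*, of a subfamily linked to eicosanoid formation in inflamed corneal epithelium, was at 29.8, 28.5 and 39.8 against 41.4, 26.7 and 37.8 (0.11, adjusted p = 0.810, edgeR, and -0.02 without Ptch1Prrx1 replicate 1). *Cyp4x1* was at 38.8, 51.1 and 61.2 against 45.5, 57.5 and 48.8 (0.01, adjusted p = 0.990, edgeR). All 3 overlapped between the groups.

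*Cyp2a5*, the mouse coumarin hydroxylase, gave the call that depended least on any 1 sample. It was at 1315, 1070 and 1003 normalized counts in the control samples and at 461, 397 and 489.8 in the Ptch1Prrx1 samples. Every Ptch1Prrx1 sample lay far below every control, and Ptch1Prrx1 replicate 1 lay between its group mates. The gene was 2.51-fold lower (log2 fold change -1.33, SE 0.13, adjusted p = 0.00436, edgeR). It was called in all 6 fits that left out 1 sample, with log2 fold changes from -1.41 to -1.21.

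The near copy of this gene is *Cyp2a4*, a steroid hydroxylase gene that was not analysed here. On GRCm38 the *Cyp2a5* transcript lies at chr7:26835305-26843528 and that of *Cyp2a4* at chr7:26307169-26315088, both on the plus strand. Their coding sequences are 1485 bases each and differ at 23 positions (98.5% identity). The most divergent 120 bases, coding positions 550 to 669 of GENCODE M21, are shown with their 6 differing bases in capitals.
Cyp2a5: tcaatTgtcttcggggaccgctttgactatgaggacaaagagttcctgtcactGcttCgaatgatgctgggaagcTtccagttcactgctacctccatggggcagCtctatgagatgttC
Cyp2a4: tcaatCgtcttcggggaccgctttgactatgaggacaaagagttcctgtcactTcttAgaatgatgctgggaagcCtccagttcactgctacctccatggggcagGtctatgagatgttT

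Of the 100-base windows of *Cyp2a5*, 14.4% occur in another gene and 9.56% in *Cyp2a4*. Its counts were whole in all 6 samples, unlike those of the *Cyp4a12* pair, which does not by itself show that every read came from *Cyp2a5*. Whether reads of *Cyp2a4* were counted as *Cyp2a5* was not tested, so the fall is reported for reads assigned to *Cyp2a5*.

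*Cyp2s1*, a dioxin-inducible P450 of epithelia, was at 1745, 1913 and 1670 normalized counts in the control samples and at 1353, 1344 and 1100.1 in the Ptch1Prrx1 samples. The groups did not overlap, and the gene fell by 0.49 on the log2 scale (SE 0.10, adjusted p = 0.0237, edgeR), a 1.40-fold difference. *Cyp2f2*, best known from the airway, where it activates naphthalene, was at 394, 382 and 413 in the control samples and at 117, 128 and 363 in the Ptch1Prrx1 samples. The controls were close together while Ptch1Prrx1 replicate 3 lay near them, and the log2 fold change of -0.96 (SE 0.40) did not pass (adjusted p = 0.135, edgeR). Without that sample *Cyp2f2* was called, at -1.69 (adjusted p = 0.00537, edgeR).

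*Cyp2b19*, the keratinocyte P450 that makes epoxides of arachidonic acid, was at 1044, 1143 and 1403 normalized counts in the control samples and at 549, 1260 and 1537 in the Ptch1Prrx1 samples. Ptch1Prrx1 replicate 1 was the lowest of all and replicate 3 the highest, and the log2 fold change of -0.10 (SE 0.33, adjusted p = 0.858, edgeR) became 0.23 without replicate 1. Neither member of the *Cyp2j* subfamily, which oxidizes arachidonic acid and related fatty acids, passed. *Cyp2j6* was at 995, 912 and 995 against 832, 920 and 976 (-0.09, SE 0.08, adjusted p = 0.488, edgeR), and *Cyp2j9* was at 229.5, 249.7 and 247 against 162, 182 and 209 without overlap (-0.39, SE 0.12, adjusted p = 0.0686, edgeR). The 2 coding sequences are 82.2% identical, and their summed counts gave -0.15 (SE 0.08, adjusted p = 0.251, edgeR).

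*Cyp2w1* was at 207, 188 and 225 normalized counts in the control samples and at 167, 134 and 185 in the Ptch1Prrx1 samples (-0.35, adjusted p = 0.147, edgeR). *Cyp2r1*, a vitamin D 25-hydroxylase, was at 75.5, 50.1 and 68.9 against 50.7, 57.5 and 63.7 (-0.18, adjusted p = 0.605, edgeR). The first of these did not overlap between groups and the second did. *Cyp2e1*, an ethanol-inducible P450, averaged 0.517 TPM and *Cyp2c23* 0.488 TPM, and neither passed edgeR's filter on low counts.

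*Cyp3a13*, the one member of the drug-metabolizing *Cyp3a* subfamily, was at 3177, 2975 and 2944 normalized counts in the control samples and at 1425, 1629.7 and 1901 in the Ptch1Prrx1 samples. Control samples lay within a narrow range and every Ptch1Prrx1 sample was well below it. The gene fell by 0.88 on the log2 scale (SE 0.11, adjusted p = 0.00769, edgeR), a 1.84-fold difference, and passed the adjusted p in all 6 fits that left out a sample. Fitted on TPM, its log2 fold change was past 2-fold (-1.09 with a pseudocount of 1). No 100-base window of its longest coding transcript occurs in another gene, but its counts were not whole in any of the 6 samples, so some of its reads were divided as well.

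*Cyp1b1* is induced through the aryl hydrocarbon receptor and oxidizes estrogens and retinoids, and mutations of the human gene cause congenital glaucoma. It was at 263, 279 and 464 normalized counts in the control samples and at 134, 165 and 193 in the Ptch1Prrx1 samples. The groups did not overlap, but control replicate 3 stood well above the others. The gene was 2.04-fold lower (log2 fold change -1.03, SE 0.24, adjusted p = 0.0349, edgeR). Control replicate 3 was also the sample with the highest stroma marker sum, at 104 CPM, and the part of this in the result was not tested. Without that sample *Cyp1b1* was at -0.72 (adjusted p = 0.0575, edgeR), and without Ptch1Prrx1 replicate 1 it was at -0.90 (adjusted p = 0.0736, edgeR). Its call was also lost without control replicate 2 (-1.15, adjusted p = 0.0885, edgeR) or Ptch1Prrx1 replicate 2 (-1.04, adjusted p = 0.0803), with the fold about as large.

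**Figure D4:**
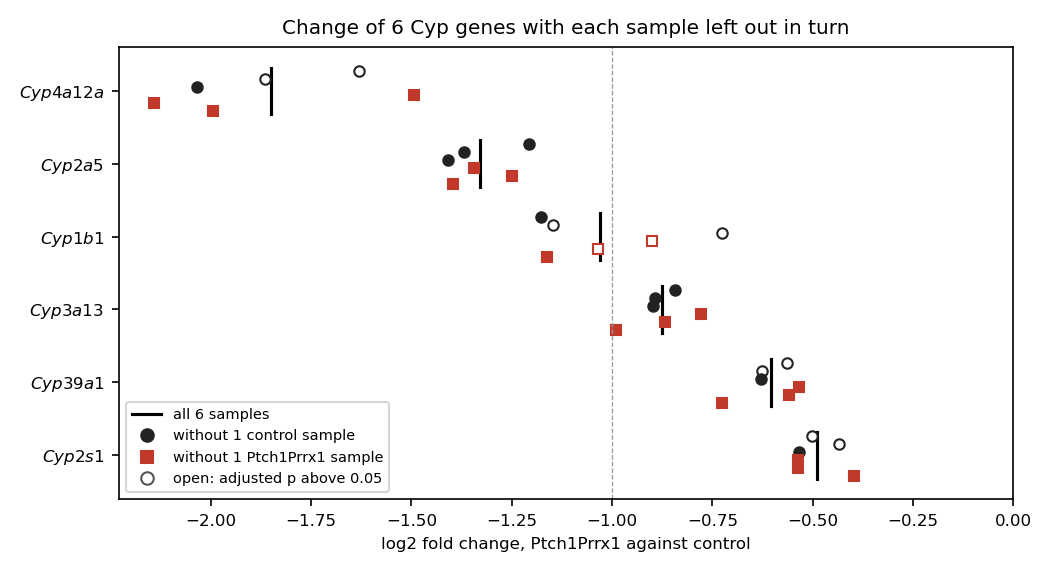
Log2 fold change of Ptch1Prrx1 against control (x axis) for the 6 *Cyp* genes that passed the adjusted p (y axis), from all 6 samples (black lines) and with each sample left out in turn (circles, a control sample left out; squares, a Ptch1Prrx1 sample left out; open where the adjusted p was above 0.05; dashed line, 2-fold). *Cyp2a5* and *Cyp3a13* have no open point, whereas *Cyp1b1* has 4.

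Among the P450s of sterol and bile acid metabolism, *Cyp39a1*, which 7α-hydroxylates the oxysterol 24-hydroxycholesterol, was at 1436, 1320.4 and 1314 normalized counts in the control samples and at 808, 832 and 1037 in the Ptch1Prrx1 samples. It fell by 0.60 on the log2 scale (SE 0.11, adjusted p = 0.0170, edgeR) without overlap, a 1.52-fold difference. The adjusted p of *Cyp39a1*, like that of *Cyp2s1*, rose above 0.05 without control replicate 1 or control replicate 2. The log2 fold changes stayed about as large, at -0.56 and -0.63 for *Cyp39a1* and at -0.50 and -0.43 for *Cyp2s1*. *Cyp51* was at 5373, 3758 and 3619 against 8009, 5852 and 4555. Its groups overlapped, since control replicate 1 exceeded Ptch1Prrx1 replicate 3, and the log2 fold change of 0.53 (SE 0.23) did not pass (adjusted p = 0.147, edgeR). These 2 sterol enzymes thus had opposite signs, and only *Cyp39a1* passed in the main edgeR test. Under an alternative setting with all samples kept, *Cyp51* also passed the adjusted p, below 2-fold.

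*Cyp7b1*, the other oxysterol 7α-hydroxylase, was at 10.9, 20.6 and 27.2 normalized counts in the control samples and at 52.7, 20.5 and 22.9 in the Ptch1Prrx1 samples, and Ptch1Prrx1 replicate 1 alone stood above the controls (0.70, adjusted p = 0.337, edgeR, and 0.15 without it). *Cyp27a1*, the sterol 27-hydroxylase, was at 105, 210.4 and 213 against 191, 139 and 201 (0.01, adjusted p = 0.991, edgeR, and -0.05 without Ptch1Prrx1 replicate 1). *Cyp46a1*, the cholesterol 24-hydroxylase, was near the counting limit at a mean of 0.430 TPM (0.29, adjusted p = 0.722, edgeR). *Cyp17a1*, the steroid 17α-hydroxylase and lyase, was at 46.7, 71.8 and 47.6 against 29.98, 48.2 and 26.9 with overlap (-0.66, adjusted p = 0.173, edgeR).

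Of the vitamin D enzymes, *Cyp24a1*, which inactivates the active hormone, was at 560.4, 917 and 795 normalized counts in the control samples and at 319, 785 and 784 in the Ptch1Prrx1 samples. Ptch1Prrx1 replicate 1 was the lowest sample and control replicate 1 the next lowest. The log2 fold change of -0.27 (SE 0.33, adjusted p = 0.617, edgeR) became 0.05 without Ptch1Prrx1 replicate 1. *Cyp27b1*, which makes the active hormone, averaged 0.263 TPM in both groups (0.05, adjusted p = 0.935, edgeR, and -0.03 without Ptch1Prrx1 replicate 1). *Cyp20a1*, a P450 whose substrate is not established, was at 132, 121 and 156 against 108, 112 and 113 without overlap (-0.30, adjusted p = 0.190, edgeR).

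The other genes of P450 metabolism were followed by lists of partners, regulators and neighbouring enzymes. Beside the counts of these lists, 0.892% of all tested genes fell and 2.34% rose at the adjusted p and 2-fold. At the adjusted p alone 6.41% fell and 7.61% rose, and 51.5% of all tested genes had a log2 fold change below 0. *Por*, which supplies electrons to every microsomal P450, was at 6126, 6319 and 5274 normalized counts in the control samples and at 5718, 5325 and 5541 in the Ptch1Prrx1 samples (log2 fold change -0.10, SE 0.08, adjusted p = 0.459, edgeR). Of the 15 redox partner genes, 13 were tested, 0 were called at 2-fold, and 2 fell at the adjusted p alone. *Cyb5a*, cytochrome b5, was at 1533, 1379 and 1313 against 1115, 995 and 1040.4 and fell by 0.42 on the log2 scale (adjusted p = 0.0212, edgeR), and *Cyb5r1*, a cytochrome b5 reductase, fell by 0.62 (adjusted p = 0.0209). The median log2 fold change of the list was 0.00.

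Of 25 regulator genes and regulated markers, 18 were tested, none was called at 2-fold, and at the adjusted p alone 2 rose and 1 fell, around a median of -0.07. *Ahr*, the aryl hydrocarbon receptor, was at 464, 434 and 497 normalized counts in the control samples and at 596, 508 and 519 in the Ptch1Prrx1 samples. All 3 Ptch1Prrx1 samples were higher, but the log2 fold change of 0.22 did not pass (adjusted p = 0.152, edgeR). *Tiparp*, a target and repressor of that receptor, rose by 0.63 on the log2 scale (adjusted p = 0.0186, edgeR), and *Vdr*, the vitamin D receptor, rose by 0.57 (adjusted p = 0.0118, edgeR). *Nqo1*, a quinone reductase under Nrf2 and the aryl hydrocarbon receptor, fell by 0.31 (adjusted p = 0.0387, edgeR). *Ppara*, the receptor that induces *Cyp4a* genes in liver, was at 120.2, 161 and 220.3 against 73.4, 99.5 and 105 without overlap and did not pass (-0.85, adjusted p = 0.0596, edgeR).

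Enzymes that share substrates with P450s changed in both directions. Among 17 epoxide hydrolase and eicosanoid genes, 14 were tested and 2 rose by at least 2-fold. *Ptgs2*, the inducible cyclooxygenase, was at 2.98, 0.983 and 2.91 normalized counts in the control samples and at 3118, 283 and 545 in the Ptch1Prrx1 samples (adjusted p = 0.0133, edgeR), and no fold is given because the controls held at most 3 counts. *Alox12b*, the epidermal 12R-lipoxygenase, was at 45.7, 6.88 and 19.4 against 271, 174 and 85.6 (log2 fold change 2.88, SE 0.62, adjusted p = 0.0278, edgeR). At the adjusted p alone *Ptgs1* also rose, by 0.68, while *Ephx1*, microsomal epoxide hydrolase, and *Alox12* fell by 0.80 and 0.58. *Ephx1* was at 5259, 5355 and 4495 in the control samples and at 2202, 3293 and 3166 in the Ptch1Prrx1 samples (adjusted p = 0.0206, edgeR). The median of this list was 0.02.

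Of 30 conjugation and related detoxification genes, 26 were tested, 1 rose by at least 2-fold and 0 fell by that much. With no minimum fold the same 1 gene rose and 6 fell. The log2 fold change was below 0 for 22 of the 26 and for 51.5% of all tested genes, and the median of the list was -0.20. *Ugt1a7c*, a glucuronosyltransferase whose first exon is joined to exons shared with the rest of its locus, was at 10.9, 42.3 and 27.2 normalized counts in the control samples and at 97.2, 85.2 and 85.6 in the Ptch1Prrx1 samples (log2 fold change 1.73, adjusted p = 0.0327, edgeR). *Gsta3*, a glutathione S-transferase, fell by 0.84 (adjusted p = 0.00820, edgeR), and the flavin monooxygenase *Fmo5* fell by 0.97 (adjusted p = 0.0158, edgeR). *Gstm1*, *Fmo2*, *Ces1d* and *Gstp1* fell by 0.68, 0.94, 0.76 and 0.29.

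Of the 18 sterol synthesis genes, all were tested, 0 were called at 2-fold, and 14 had a log2 fold change above 0, with a median of 0.18. At the adjusted p alone *Hsd17b7* rose by 0.70, while *Tm7sf2* and *Dhcr7*, reductases of the same pathway, fell by 0.54 and 0.33. *Cyp51* thus lay on the side of most genes of its pathway without passing in the main edgeR test.

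Promoter sequences, taken by RefSeq on GRCm38.p6 from 250 bases before to 50 after the start, were given for 23 of the 33 members and did not include the *Cyp4a12* genes or *Cyp39a1*. On both strands, the aryl hydrocarbon receptor core TNGCGTG was in 5.07% of all 32851 promoters and in 0 of the 23 members. The PPAR-type repeat, AGGTCA followed after 1 base by AGGTCA, was in 0.0396% of all promoters and in 0 members. The sterol element TCACNCCAC was in 1.24% of all promoters and in 1 member, *Cyp2a5*. A match in such a window is a description of the letters and not of a bound site.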

How the data were processed

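The authors depleted ribosomal RNA, aligned reads with Bowtie2 2.2.5 and quantified genes with RSEM 1.2.12, per the submitters' processing notes, which name mm9. The deposited expected counts divide reads that fit several genes and are therefore not always whole. Of the deposited values above 0, 39.4% differed from a whole number by more than 0.005. TPM and FPKM were also deposited; the authors' FPKM values and group averages were not used. The study describes 3 biological replicates per group.

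Expected counts were rounded and tested with edgeR 4.0.16 (R 4.3.3; TMM factors, its default expression filter, quasi-likelihood F test, all 6 samples, no covariate) on the whole table. P-values were adjusted by Benjamini-Hochberg over 12999 genes. SE is the log2 fold change divided by the root of F. Normalized counts are TMM-scaled counts at the mean library size. Subfamily values come from the same test after members were replaced by their sum (12992 features). DESeq2 1.42.0, limma 3.58.1 (voom, and log2 of TPM plus a pseudocount of 1 or 0.1), other filters and factors, and leaving out samples were alternatives. The script for the edgeR test was tested on simulated data. Reads shared with other genes were described by the share of 100-base windows of the longest GENCODE M21 coding transcript (GRCm38) found in any other gene, on either strand.

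All members were counted. Named with values were the called members, those past the adjusted p, the most abundant of each subfamily, the 10 most abundant, those beside the count minimum and a list of named enzymes, and in other lists *Por*, *Ahr* and the called genes; other genes were named after their values were seen, among them *Cyp4a10*, *Cyp2f2*, *Ppara*, the Y-linked genes and those past the adjusted p alone. The members and all lists were chosen with earlier results of these data known. Marker lists were those of corneal epithelium, stroma, conjunctiva, immune cells, vascular and corneal endothelium, sebaceous and meibomian glands, melanocytes and Schwann cells, with immediate early genes beside them. Coordinates are given for GRCm38 reference transcripts only.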

Additional observations from a re-analysis of the deposited data

How the results depend on the processing

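The same 3 members were called with DESeq2, RLE or upper-quartile factors, either other count filter and a replicate block. limma-voom called 2 of them, without *Cyp1b1*, and limma on TPM called *Cyp2a5*, *Cyp4a12a* and *Cyp3a13* under both pseudocounts. With no minimum fold 6 members were called, all down, with 1822 genes overall (989 up and 833 down, against 304 and 116) and 6 subfamily sums. An unadjusted p with 2-fold added 1 member up, *Cyp4a10*. Some results past 0.05 in the main edgeR test had an adjusted p below 0.05 under an alternative setting with all samples kept. These were *Cyp51*, upward, and *Cyp4a12b*, *Cyp4f13* and the *Cyp4a* sum, downward, all below 2-fold. limma on log2(TPM + 1) called 234 genes, and voom called 1 subfamily sum. Leaving out 1 sample gave 1 to 4 members called, 1 to 4 down, 59 to 430 genes and 1 to 3 subfamily sums, in each case against 3, 3, 420 and 2 from all samples. The lowest counts of members and genes came without control replicate 2.

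The sign turned for genes that did not pass. *Cyp27a1* became -0.0051 with upper-quartile factors, -0.00013 with a filter of 1 count and -0.0024 with log2(TPM + 1), and *Cyp4x1* became -0.0050, -8.1e-05 and -0.016, and -0.019 with log2(TPM + 0.1). With 1 sample left out, *Cyp24a1* spanned -0.46 to 0.054, *Cyp27a1* -0.26 to 0.16, *Cyp27b1* -0.10 to 0.27, *Cyp2b19* -0.40 to 0.23, *Cyp46a1* -0.014 to 0.69, *Cyp4b1* -0.016 to 0.27, *Cyp4f15* -0.58 to 0.026 and *Cyp4x1* -0.15 to 0.17. The cause was not tested.

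Samples with the same number deviated from their group means with correlations of 0.105, -0.0137 and 0.0189, and 3 of 6 samples correlated best with their own number, so the numbers were not taken as pairs. With the replicate block 3 members, 390 genes and 2 subfamily sums were called. At this depth 6 members lay below 1 TPM and 3 of them did not pass edgeR's default filter.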
